A study of Mus musculus with 14 samples.

Results

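The probes described here are the intergenic long non-coding RNA probes of a mouse expression array. They are the non-control probes that the array's design names by a genomic interval and a strand (F, forward; R, reverse) and not by a gene. There were 16181 such probes among 55681 non-control probes (29.1%). They covered 4607 stranded regions, with a median of 3 probes a region and up to 10. Those regions lay in 3540 intervals of median length 7.32 kb on chromosomes 1 to 19 and X of build mm9. Of the intervals, 1067 carried probes on both strands and 2473 on a single strand. Many intervals overlapped, and merged without regard to strand they formed 2223 loci.

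Each of 14 one-colour arrays (Cy3 label) held RNA from 1 of 5 groups, all from mouse. Small intestine (3 arrays) and colon (3 arrays) were whole tissue labelled as C57BL/6J, from adult wild-type animals. Adenoma (3 arrays) was macroscopic adenoma, and adjacent tissue (2 arrays) was the non-tumour intestine beside it, both whole tissue from APCmin/+ mice on a C57BL/6J background. These mice carry 1 truncated copy of the tumour suppressor Apc in every cell and form many intestinal adenomas. The sample list of the study gives all adenoma and adjacent pieces to 1 APCmin/+ animal, so that their spread is the spread between pieces of that animal. It also lists 1 colon sample under an APCmin/+ mouse, against the C57BL/6J label. CT26 (3 arrays) is a colon carcinoma cell line obtained from ATCC and derived from BALB/c mice, so that strain, culture and tumour origin cannot be told apart in its comparison with colon. Whether the CT26 arrays came from separate cultures is not stated.

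Long intergenic non-coding RNAs are long transcripts that lie between protein-coding genes and have no long reading frame. Many are spliced and polyadenylated by the same machinery as messenger RNA, but most are present at lower levels and in fewer cell types. Some act on chromatin or on neighbouring genes, and for many no function is known. In the intestine, the Apc protein restrains Wnt signalling, and its loss in crypt cells keeps them in a proliferative, undifferentiated state.

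The sequences of a few probes are given first, since the design names these probes by position alone. Each is a 60-base oligonucleotide, printed 5′ to 3′ as the scanner files list it, with its mm9 position and strand. The following 6 probes belong to regions with group differences described below. The last of them, near Cxcl17, was called only with colon replicate 3 left out. Capitals mark AATAAA, the usual polyadenylation signal, where a probe holds it on the listed strand.

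Region near Bhlhe40, higher in adenoma (chr6:108560326-108560385, reverse): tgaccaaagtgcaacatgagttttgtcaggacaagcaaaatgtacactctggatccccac
Region near Cracd, lower in adenoma (chr5:77271441-77271500, forward): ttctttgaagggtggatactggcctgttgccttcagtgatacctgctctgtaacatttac
Region holding the Mgam probe, lower in CT26 (chr6:40718909-40718968, forward): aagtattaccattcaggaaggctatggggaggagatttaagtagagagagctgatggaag
Region holding the Isoc2a probe, lower in CT26 (chr7:4847202-4847261, forward): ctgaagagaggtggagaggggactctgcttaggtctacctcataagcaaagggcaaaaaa
Region holding Morrbid, higher in CT26 (chr2:128142199-128142258, reverse): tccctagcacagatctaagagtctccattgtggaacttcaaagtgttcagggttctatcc
Region near Cxcl17, higher in colon than in small intestine (chr7:26224498-26224557, forward): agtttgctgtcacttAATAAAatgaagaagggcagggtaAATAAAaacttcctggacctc

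AATAAA was present in 634 of the 16181 probes (3.92%), against 13.2% of the 26392 probes for RefSeq protein-coding transcripts. It was about as frequent in the probes detected on all 14 arrays (4.24%) as in those detected on no array (3.86%). Median GC content was 45.0% in the first class and 43.3% in the second.

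A further 4 probes are shown because their sequences are shared with probes placed elsewhere, which limits what their signal can be assigned to. Capitals here mark the longest run shared with the other probe.

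Region near Homez, run shared with the region near Mrpl1 (chr14:55445108-55445167, reverse): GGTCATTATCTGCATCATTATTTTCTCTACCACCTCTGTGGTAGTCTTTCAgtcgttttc
Region near Mrpl1, run shared with the region near Homez (chr5:96603301-96603360, forward): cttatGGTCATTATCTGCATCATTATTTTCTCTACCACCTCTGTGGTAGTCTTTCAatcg
Region near B3gnt2, run shared with the Rps16 probe (chr11:22686751-22686810, reverse): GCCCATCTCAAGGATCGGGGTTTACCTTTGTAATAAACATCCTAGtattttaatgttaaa
Region near Gsta1, run shared with the Gsta1 probe (chr9:78116894-78116953, forward): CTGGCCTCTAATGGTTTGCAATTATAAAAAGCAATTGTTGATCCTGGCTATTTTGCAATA

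The first pair shared 51 of 60 bases although the regions lie on chromosomes 14 and 5. The probe near B3gnt2 shared 45 bases with the probe for Rps16, which encodes a protein of the small ribosomal subunit, and the probe near Gsta1 was identical over all 60 bases to the probe for Gsta1, a glutathione S-transferase of detoxification. Runs of at least 30 bases in common with a probe at another position were found for 471 lincRNA probes (2.91%), and for 94 of them that other probe was not a lincRNA probe. The signal of such a probe cannot be assigned to 1 of the copies.

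Signal is given below as scaled log2 signal, which is the log2 of the background-corrected spot brightness minus the 75th percentile of its array, so that 0 is the brightness of the 75th percentile. A probe counts as detected where the scanner software marked the spot as well above background. LincRNA probes were detected less often than other probes on each of the 14 arrays. The share detected ran from 24.4% (colon replicate 3) to 41.8% (CT26 replicate 3) for lincRNA probes, and from 55.4% to 66.8% for the others. The mean difference was -28.3 percentage points (SD 4.85, n = 14, two-sided exact sign-flip permutation test, p = 0.000122, the smallest these arrays can give; the adenoma and adjacent arrays share an animal). The gap was narrower on the CT26 arrays, between -21.2 and -17.5 points, than on the 11 tissue arrays, between -31.8 and -29.3 points. On CT26 arrays more lincRNA probes and fewer other probes passed than on most tissue arrays.

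**Figure D1:**
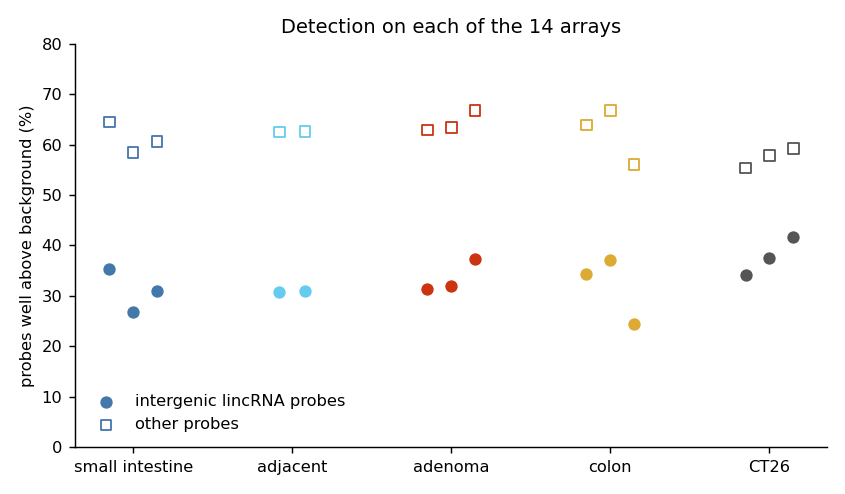
Percentage of probes well above background (y axis) on each array, by group (x axis), for lincRNA probes (filled circles) and all other probes (open squares). Filled circles lie between 24.4% and 41.8% and below every open square, and the distance between the symbols is smallest in CT26.

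All 14 arrays detected 2995 lincRNA probes (18.5%), and 6973 (43.1%) were detected on none, against 45.2% and 22.3% of the other probes. In regions, 1789 of 4607 (38.8%) had a probe detected on all arrays and 772 (16.8%) had no probe detected on any. Probes detected on every array of a group numbered 3997 in small intestine, 4417 in adjacent tissue, 4492 in adenoma, 3572 in colon and 4972 in CT26. Without colon replicate 3 the colon count was 5063, with detection then asked of only 2 arrays. Leaving out a single array raised the count in every group, to between 4520 and 4987 in adenoma and between 5044 and 5696 in CT26. The number detected per array ran from 4321 to 5703 in small intestine, from 5087 to 6025 in adenoma, from 3953 to 6004 in colon and from 5538 to 6756 in CT26, so the groups overlapped. CT26 averaged 954 more than colon (two-sided exact permutation test, p = 0.30), and adenoma 422 more than small intestine (exact p = 0.40), where 3 arrays against 3 cannot go below 0.10.

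Detection confined to 1 group was rare outside CT26. In CT26, 280 probes of 216 regions were detected on all 3 arrays and on no array of another group (1.73% of lincRNA probes, against 0.777% of the others). In adenoma there were 20 such probes of 17 regions (0.124%, against 0.289% of the others), in colon 5 (0.0309%, against 0.0304%), in small intestine 2 (0.0124%, against 0.0405%) and in adjacent tissue 2 (0.0124%, against 0.0152%). With colon replicate 3 left out, the colon number was 48 (0.297% of lincRNA probes, with the others not counted). Detection was then asked of only 2 colon arrays, so this number is not comparable with those of the groups of 3. Among the adenoma probes was one of the forward-strand region chr17:7838192-7853103, 78.5 kb from Fndc1, a fibronectin-domain gene. It read -2.27, -1.80 and -2.18 in the 3 adenomas and between -7.43 and -5.89 on all other arrays, none of which detected it. A CT26 example was a probe of the reverse-strand region chr10:72726649-72799726, which read 2.07, 1.36 and 1.75 in CT26 and was not detected in any tissue. Its nearest RefSeq probe, for Zwint, a kinetochore protein, lay 614 kb away.

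The 5 brightest lincRNA probes were detected on all 14 arrays, and 3 of them shared sequence or position with ribosomal RNA or a ribosomal protein gene. The probe with the highest mean was the one near B3gnt2 that shares 45 bases with Rps16, with scaled signals between 7.59 and 9.01 on the 14 arrays. Second was a probe of chr17:39982023-39983277, forward strand (7.30 to 8.56), 1.84 kb from the probe of Rn18s, the 18S ribosomal RNA. Also among the top 5 was a probe of chr17:39960567-39992817, forward strand (6.31 to 8.59), whose interval holds the Rn18s probe. The other two were in chr17:17481706-17482457 (7.50 to 8.71) and in chr7:108209996-108216032 (7.29 to 8.40), both reverse strand. The last of these is 1 of 118 probes for which the array files give no position, and no neighbour was assigned to it.

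Where both strands of an interval were on the array, detection was often on 1 strand only. Counting a strand as detected if any of its probes was detected on every array of at least 1 group, 559 of the 1067 intervals (52.4%) had both strands detected, 187 (17.5%) the forward strand only, 190 (17.8%) the reverse only and 131 (12.3%) neither. An example is the interval chr1:193875525-193978800. Its best reverse probe read between 6.07 and 7.47 on all 14 arrays, and its best forward probe was not detected on any. That reverse-strand region also holds a probe of Rcor3, a REST corepressor subunit, so an annotated transcript runs through it. The interval chr17:86560289-86565864 beside Prkce, a protein kinase C, also had detection on the reverse strand only, where its best probe read 2.24 to 4.21.

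For each pair of groups, limma's moderated test was run over all probes detected on every array of at least 1 of the 2 groups. A probe was called where the log2 fold change was 1.2 or more in size and the p, adjusted by Benjamini and Hochberg's method over every probe tested, was 0.01 or less, the thresholds of the study. A region counts once if any of its probes was called. The values given for a region are those of 1 probe of it, and the number of its other probes that were called is given where it bears on the result. Unequal RNA per cell and unequal numbers of cells of a type cannot be told apart in these whole tissues.

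**Figure D2:**
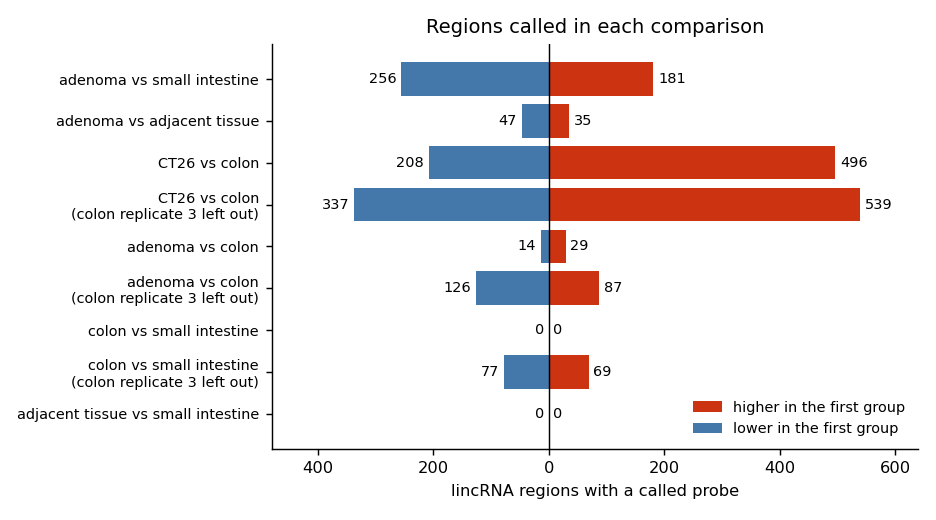
Number of stranded lincRNA regions with a called probe (x axis), higher (right, red) or lower (left, blue) in the first-named group, for each comparison with and, where colon is compared, without colon replicate 3. CT26 against colon has the longest bars (496 higher and 208 lower, or 539 and 337 without colon replicate 3), and adjacent tissue against small intestine has none.

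Colon replicate 3 stood apart before any lincRNA was considered. The median scaled signal of 8 small-intestinal enterocyte genes was 5.65 on that array, against -1.21 and -0.67 on the other colon arrays and 6.74 to 8.81 in small intestine. The median of 7 colonocyte genes was 2.44, against 5.003 and 5.113. Other lists did not place it with small intestine. Its median of 5 B cell markers was 2.80, against -0.15 and 0.0066 on the other colon arrays and -4.61 to -3.64 in small intestine. Its median of 6 smooth muscle markers was 6.62, beside 6.82 and 7.06 in colon and 4.76 to 6.68 in small intestine. The 75th percentile of colon replicate 3 was the lowest of all arrays. Counts of calls with colon are given with and without that array, as is the test of each region named for CT26 against colon. The epithelial list (Epcam, Cdh1, Vil1 and 4 keratins) was fully detected on all 11 tissue arrays, but only 2 or 3 of its 7 genes were detected on the CT26 arrays, where its median lay between -6.49 and -6.14.

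Adenoma differed from normal small intestine at many lincRNA regions. Of 4827 lincRNA probes tested, 317 were higher (6.57%) and 385 lower (7.98%) in adenoma, in 181 and 256 regions. Over all 29539 probes tested, 10.9% were higher and 10.9% lower, so the lincRNA shares were below those of the array as a whole. Rises were 45.2% of the lincRNA calls and 35.5% after normexp background correction, and with detection required in both groups there were 119 rises and 278 falls. The median log2 fold change was -0.36 over lincRNA probes and -0.15 over all probes. The median of the enterocyte list lay between 4.75 and 5.65 in adenoma, and 4 of its 8 genes fell. Of 6 proliferation genes 5 rose (Aurka, Bub1, Ccnb1, Cdk1 and Top2a). Among 5 macrophage and neutrophil markers 3 rose (Cd68, S100a8 and S100a9). Among 4 T cell markers 3 fell (Cd3g, Cd4 and Cd8a), as did 1 of 6 smooth muscle markers (Myh11). Of 7 colonocyte markers 2 rose and 3 fell, and of 7 epithelial markers 1 rose and 2 fell. The part of these cell differences in the lincRNA changes was not tested.

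The largest rise in adenoma, among probes detected on all arrays of both groups without overlap, lay in the reverse-strand region chr6:108556270-108573161. Its nearest RefSeq probe, 56.1 kb away, is that of Bhlhe40, a transcriptional repressor of the circadian clock. This probe of the region read -0.06, 0.15 and -0.04 in the 3 adenomas, -3.19 and -2.94 in adjacent tissue and -4.64, -3.60 and -2.90 in small intestine. The adenomas lay together and above both other groups. Its log2 fold change against small intestine was 3.73 ± 0.41 (SE, limma adjusted p = 0.00058). A neighbouring probe, printed above, was not detected in small intestine and read -1.48, -1.08 and -1.21 in adenoma, at least 9.69-fold higher. Such bounds, given wherever no array of the dimmer group detected the probe, compare the bright arrays' mean log2 value with a floor, which on each dim array is the lowest signal of any detected probe or, if higher, the probe's own.

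The 9 probes of this region did not move as 1 unit. Of 7 tested, 6 were higher in adenoma. The remaining one lay between the others and read 0.40 in small intestine, 0.06 in adenoma and 0.12 in CT26 on average, with a log2 fold change of -0.34 (adjusted p = 0.12). The 2 probes that were not tested were detected on no adenoma array. In colon the region was uneven between arrays: the first of these probes read -1.79 and 0.41 in replicates 1 and 2 and -3.30 in replicate 3. The probe at chr6:108560390-108560449 read 1.01 and -0.13 in colon replicates 1 and 2, above all adenomas, and -5.14 in replicate 3. Bhlhe40 itself differed by 0.41 ± 0.28 between adenoma and small intestine (adjusted p = 0.24).

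**Figure D3:**
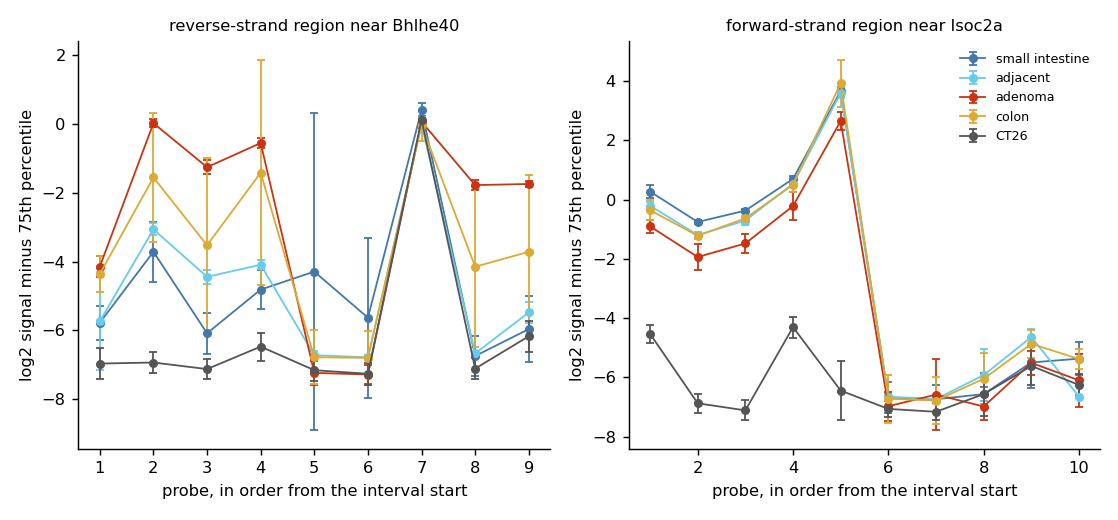
Scaled log2 signal (y axis; mean of each group's arrays, bars are SD, 2 to 3 arrays) of each probe in order along 2 regions (x axis). In the region near Bhlhe40 the adenoma mean is highest at 6 of 9 probes, where the colon mean includes replicate 3. All groups meet near 0 at its seventh probe. In the region near Isoc2a CT26 is lowest at the first 5 probes while the last 5 are near background in every group.

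A pair of regions with a shared sequence rose together. The reverse-strand region chr14:55433382-55452757, 26.6 kb from Homez, a homeobox gene, read 5.61, 5.54 and 5.13 in adenoma and 2.56, 1.89 and 1.32 in small intestine (log2 fold change 3.50 ± 0.33, adjusted p = 0.00031). The forward-strand region chr5:96591892-96606467, 64.6 kb from Mrpl1, a mitochondrial ribosomal protein gene, read 5.32, 5.36 and 4.95 against 2.38, 1.67 and 1.14 (3.48 ± 0.32, adjusted p = 0.00030). On every array the first was slightly brighter. Their probes share 51 bases, as printed above, so these are not 2 independent measurements.

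The reverse-strand region chr11:96111499-96126224 in the Hoxb cluster, 22.8 kb from the Hoxb9 probe, read 0.61, 0.48 and 0.10 in adenoma, -2.75, -2.40 and -3.19 in small intestine and -1.69 and -2.40 in adjacent tissue (log2 fold change against small intestine 3.18 ± 0.25, adjusted p = 0.00018). The adenomas lay above both other groups. Only 1 of its 2 tested probes was called, and the other changed by -0.52. The reverse-strand region chr1:15839444-15840383 lay 4.23 kb from Sbspon, which encodes a secreted thrombospondin-domain protein. It read -1.10, -0.43 and -0.33 against -3.73, -3.99 and -3.54 (3.13 ± 0.25, adjusted p = 0.00019), and Sbspon rose too (adjusted p = 0.00086). All 3 of its probes were called, and it lies inside the wider region chr1:15834778-15843077, which adds a further adenoma-only probe. The reverse-strand region chr7:106529142-106529752, 35.5 kb from Serpinh1, a collagen chaperone, was detected in both adjacent pieces (-2.31 and -0.23) and all adenomas (0.20, -0.06 and -0.75) and in no small intestine array, and was at least 19.6-fold higher in adenoma than there. The other tested probe of that region changed by -0.20.

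The reverse-strand region chr10:87541696-87547421, 12.8 kb from Parpbp, read 3.18, 4.31 and 4.48 in small intestine, 2.14 and 1.26 in adjacent tissue, and -0.59, 0.21 and -0.35 in adenoma (log2 fold change -4.23 ± 0.38, adjusted p = 0.00028). Adjacent tissue lay between, and 1 of the region's 2 tested probes fell. In colon it read -3.68, -4.00 and, on replicate 3, 0.89. The forward-strand region chr5:77239012-77271614, 30.7 kb from Cracd, an inhibitor of actin filament capping, read 0.02, -0.38 and -0.11 in small intestine and -4.31, -3.65 and -3.67 in adenoma (-3.72 ± 0.23, adjusted p = 0.00010). All 3 of its probes fell, and Cracd fell by 3.66 on the log2 scale (SE 0.21, adjusted p = 8.8e-05). The forward-strand region chr4:138653689-138688814, 0.615 kb from the Micos10 probe on the other strand, read 1.34, 1.34 and 0.24 against -2.73, -2.58 and -1.91 (-3.38 ± 0.36, adjusted p = 0.00053), but it varied between the adjacent pieces, 2.23 and -1.18, and only 1 of its 4 tested probes fell. A probe of the reverse-strand region chr9:40268246-40268441 was not detected in adenoma and was at least 8.32-fold lower there; with single arrays left out in turn its adjusted p rose to as much as 0.024.

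Another 2 of the 5 largest falls among probes detected in both groups were in the following regions. The region chr18:75448313-75456983, reverse strand, read 0.36, 0.79 and 1.60 in small intestine, -0.998 and -0.89 in adjacent tissue and -3.41, -3.34 and -3.15 in adenoma (-4.21 ± 0.31, adjusted p = 0.000155). Dym, whose probe lies 23.7 kb away, did not pass the test (-0.03 ± 0.17, adjusted p = 0.90). The region chr18:60812427-60819775, reverse strand, read 0.49, 1.87 and 2.23 against -2.04, -1.72 and -1.73 (-3.36 ± 0.43, adjusted p = 0.0011), with all 3 of its probes called. In both regions the adenomas lay close to each other and apart from small intestine.

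**Figure D4:**
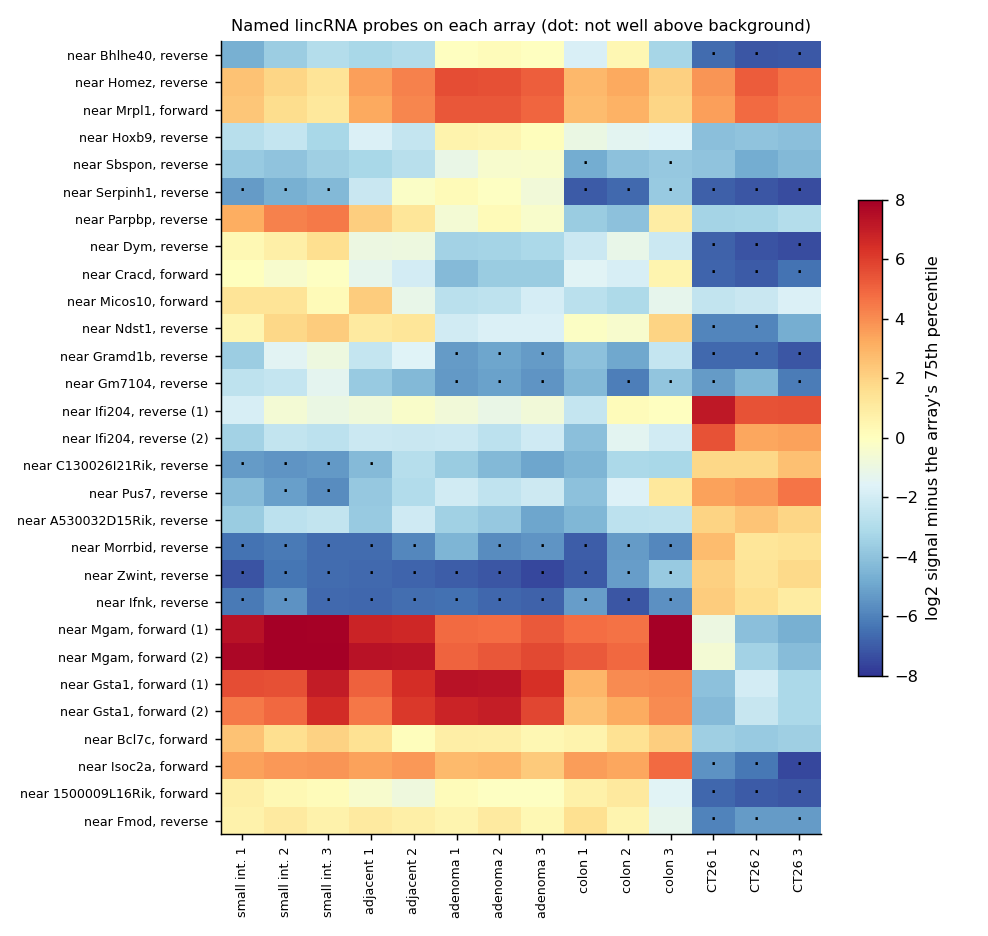
Scaled log2 signal (colour) of 29 lincRNA probes (rows, labelled by nearest RefSeq probe and strand) on the 14 arrays (columns), where a dot marks a spot not well above background. The probes were named by rule for adenoma against small intestine or CT26 against colon; colon replicate 3 lies nearer to small intestine than the other colon arrays do at the Mgam and Parpbp rows.

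Regions with several probes mostly moved one way. Among the 181 regions that were higher in adenoma, 130 had at least 2 tested probes, all tested probes had the same sign in 93, and at least 2 were called in 75. Among the 256 that were lower, the numbers were 163, 133 and 64. Of the 81 intervals with a rise and both strands on the array, 9 rose on both strands, and of the 135 with a fall, 14 fell on both. A RefSeq probe on the same strand lay inside 30 of the regions that rose and 31 of those that fell.

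Against the tissue beside them, adenomas gave fewer calls, and their number was not stable when an array was left out. Each such fit has fewer arrays and less power, so a lower number does not show that the calls rest on that array. Of 4893 lincRNA probes tested, 57 were higher and 70 lower in adenoma, in 35 and 47 regions, against 2.27% higher and 1.71% lower over all 29734 probes. The lincRNA shares were 1.16% and 1.43%. Rises were 44.9% of the lincRNA calls, 29.3% after normexp background correction and 56.0% after quantile normalization, so that their balance had no settled direction. Called regions fell to 0 without adenoma replicate 2, 1 without replicate 3, 4 without replicate 1 and 35 without adjacent replicate 1, and rose to 220 without adjacent replicate 2. With all of them, the region near Bhlhe40 again led: another of its probes read -0.70, -0.43 and -0.54 in adenoma and -4.00 and -4.18 in adjacent tissue (3.53 ± 0.16, adjusted p = 0.0012). The forward-strand region chr3:90425270-90435820, 9.92 kb from S100a6, a calcium-binding protein gene, read -1.83, -1.29 and -1.66 against -3.73 and -4.11 (2.33 ± 0.23, adjusted p = 0.0051), and S100a6 itself rose by 2.28 ± 0.22 (adjusted p = 0.0048). Among falls, chr9:40268246-40268441 read -4.09, -3.96 and -3.49 against -1.49 and -0.64 (-2.78 ± 0.32, adjusted p = 0.00665), and the nearby region chr9:40266027-40266460 was not detected in adenoma and was at least 3.14-fold lower there. All these comparisons are between pieces of 1 animal.

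Adjacent tissue and small intestine gave no called lincRNA probe among 4660 tested, and 2 calls among all 28833 probes (0.00694%). At an unadjusted limma p under 0.05 there were 998 lincRNA probes. Other probes were not counted at that threshold, so this number does not set lincRNA probes apart from the rest of the array. Several of the adenoma regions above read between small intestine and adenoma in adjacent tissue, but with 2 adjacent arrays no such difference passed the test.

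Colon and small intestine also gave no called lincRNA probe among 4247 with all 3 colon arrays, and 2 calls in all 27302 probes (0.00733%). At an unadjusted limma p under 0.05 there were 637 lincRNA probes, again without a count of the other probes. Without colon replicate 3, 108 probes were higher in colon and 113 lower, in 69 and 77 regions of 5274 probes tested (2.05% and 2.14%), beside 3.28% and 3.66% over all 30542 probes. In that fit 7 of 8 enterocyte and 3 of 4 T cell markers were lower in colon. There, 4 of 7 colonocyte and 4 of 5 B cell markers were higher. The enterocyte, colonocyte and B cell lists also set replicate 3 apart, so their calls without it are no independent evidence. The part of these markers in the lincRNA calls was not tested. The 2 remaining colon arrays carry these calls, and each value below is for them, with replicate 3 given after.

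Higher in colon was the forward-strand region chr4:114585803-114588898, which holds the probe of Foxd2os, a long non-coding RNA antisense to the forkhead gene Foxd2. Its probe read 1.07 and 1.07 in colon, and it was not detected in small intestine, at least 48.6-fold lower (limma adjusted p = 0.00012 without colon replicate 3). On colon replicate 3 it was not detected (-5.07). The forward-strand region chr7:26202452-26224557, 39.4 kb from the chemokine gene Cxcl17, read -0.18 and -0.77 in colon and was not detected on any of the 8 small intestine, adjacent and adenoma arrays. Replicate 3 again did not detect it (-5.79). In the Mecom locus, a gene for a zinc-finger transcription factor, the reverse-strand region chr3:30032959-30079659 read 0.07 and -0.30 against -2.54, -3.03 and -2.55 in small intestine (2.59 ± 0.27, adjusted p = 0.0028), and Mecom rose too (adjusted p = 0.0069). Replicate 3, at -2.77, lay with small intestine.

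In each of the 3 regions given here as lower in colon, colon replicate 3 read above the other colon arrays. The regions named as higher or lower in colon were picked from calls made without that array, and none was called with it. How replicate 3 reads in them is therefore partly fixed by that choice. The Parpbp-side region chr10:87541696-87547421 differed by -7.83 ± 0.43 (adjusted p = 0.00038). The reverse-strand region chrX:12811766-12813409 read -0.18, 0.61 and 1.24 in small intestine and -4.69 and -4.74 in colon (-5.28 ± 0.42, adjusted p = 0.0013), with -0.86 on replicate 3, and all 3 of its probes were called. The reverse-strand region chr10:39666719-39679959, which holds the probe of G630090E17Rik, read 2.57, 3.33 and 3.18 against -0.97 and -1.52 (-4.27 ± 0.33, adjusted p = 0.0011). That gene's own probe fell by 4.22 on the log2 scale (SE 0.27, adjusted p = 0.00065), and replicate 3 read 2.11.

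CT26 against colon gave the most calls of the 6 comparisons. Of 5316 lincRNA probes tested, 873 were higher in CT26 (16.4%) and 318 lower (5.98%), in 496 and 208 regions, beside 21.5% and 14.9% over all 29398 probes. Without colon replicate 3 the probes numbered 947 and 563 of 6000 tested (15.8% and 9.38%). Of the other probes, 21.6% were then higher and 20.6% lower, where all arrays gave 22.7% and 16.9%. Rises were 73.3% of the lincRNA calls, 62.7% without colon replicate 3 and 62.0% after normexp background correction. The median log2 fold change of all probes was itself 0.37, and 0.12 after normexp, beside 0.21 for lincRNA probes as processed and -0.11 after normexp. With detection required in both groups the lincRNA median was -0.05. After quantile normalization the order of the shares turned: 20.6% of lincRNA probes were higher in CT26, against 19.1% of the other probes, where the values as processed gave 16.4% against 22.7%. All 7 epithelial, all 6 smooth muscle and all 5 B cell markers were lower in CT26, and 5 of 6 proliferation genes were higher; the part of these cell types in the falls was not tested.

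Both largest rises among probes detected in both groups lay near Ifi204. The reverse-strand region chr1:175705225-175717250, 29.0 kb from Ifi204, an interferon-inducible DNA sensor gene, read 7.15, 5.45 and 5.51 in CT26 and -2.39, 0.13 and -0.03 in colon (6.80 ± 0.76, adjusted p = 0.00026, and 7.17 without colon replicate 3, adjusted p = 0.00032). All 5 of its probes rose, and so did Ifi204, by 7.04 ± 0.78 (adjusted p = 0.00025). A second region of that cluster, chr1:175654606-175672031, read 5.49, 3.36 and 3.50 against -4.09, -1.39 and -2.05 (6.63 ± 0.82, adjusted p = 0.00042, and 6.86 without colon replicate 3, adjusted p = 0.00070), also with 5 of 5 probes called. In both the CT26 arrays lay above every tissue array. The reverse-strand region chr1:85304494-85305390, 51.1 kb from C130026I21Rik, read 1.85, 1.84 and 2.57 against -4.50, -3.15 and -3.25 (5.72 ± 0.44, adjusted p = 4.1e-05, and 5.91 without colon replicate 3, adjusted p = 5.5e-05). The reverse-strand region chr5:23195569-23218551, 41.8 kb from Pus7, which encodes a pseudouridine synthase, read 3.48, 3.70 and 4.60 in CT26 and -4.05, -1.68 and 1.16 in colon, where replicate 3 was the highest. Its log2 fold change was 5.45 ± 1.15 (adjusted p = 0.0055), and 6.79 without colon replicate 3 (adjusted p = 0.00019), with 3 of 6 tested probes called.

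The largest rises by bound were those of 3 probes detected on all CT26 arrays and on no colon array. The reverse-strand region chr2:128142035-128142481 holds the probe of Morrbid, a long non-coding RNA known for its part in the survival of myeloid cells. It read 2.73, 1.28 and 1.40 in CT26, at least 81.3-fold above colon (adjusted p = 2.55e-05, and 5.04e-05 without colon replicate 3), and the Morrbid probe was also higher (adjusted p = 3.2e-05). The probe on chromosome 10 at 614 kb from Zwint was at least 77.3-fold higher (adjusted p = 0.00022, and 2.76e-05 without colon replicate 3). In that region 4 of 5 tested probes were called higher, and the remaining one had a log2 fold change of -1.31. The reverse-strand region chr4:35106125-35127700, 10.4 kb from the interferon gene Ifnk, read 2.23, 1.60 and 0.96, with no detection on any tissue array. It was at least 70.5-fold higher (adjusted p = 3.36e-05, and 5.57e-05 without colon replicate 3).

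Falls in CT26 included 2 overlapping regions of the maltase-glucoamylase locus. The forward-strand region chr6:40693617-40720167, which holds the probe of Mgam, a brush border enzyme of starch digestion, read 5.30, 4.88 and 8.56 in colon and -0.62, -3.39 and -4.21 in CT26 (-8.99 ± 1.18, adjusted p = 0.00058). It was brightest in small intestine (7.74, 8.54 and 8.45) and on colon replicate 3; without that array the fold change was -7.83 (adjusted p = 0.00046). Mgam fell too (adjusted p = 0.00047). The region chr6:40699474-40719122 lies inside it and gave -9.09 ± 1.201 (adjusted p = 0.00059), or -7.95 without colon replicate 3 (adjusted p = 0.00052). The Gsta1-side region chr9:78107225-78118850 read 2.91, 4.05 and 4.16 in colon and -4.03, -1.99 and -3.15 in CT26 (-6.76 ± 0.58, adjusted p = 6.7e-05), or -6.53 without colon replicate 3 (adjusted p = 0.00014). Since that probe is identical to the Gsta1 probe, which fell by 6.74, the signal cannot be given to the region itself. A fall with a neighbour that rose was found in the forward-strand region chr7:134779841-134840591, which read 0.59, 1.44 and 2.17 in colon and -3.54, -3.75 and -3.53 in CT26 (-5.01 ± 0.42, adjusted p = 6.2e-05, and 3.85e-05 without colon replicate 3). Bcl7c, whose probe lies 24.0 kb away, rose by 1.90 (adjusted p = 0.00094).

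The largest fall by bound was in the forward-strand region chr7:4827340-4863315, which holds the probe of Isoc2a, an isochorismatase-domain gene. Its brightest probe read 3.61, 3.34 and 4.82 in colon, 3.49, 3.73 and 3.76 in small intestine and 2.78, 2.88 and 2.29 in adenoma, and was not detected in CT26. It was at least 589-fold lower there (adjusted p = 8.8e-06, and 9.52e-06 without colon replicate 3). Of its 10 probes the first 5 were detected in every tissue and were called lower in CT26, and the last 5 were not detected on any CT26 or colon array. Isoc2a fell too (adjusted p = 0.000495). A further 2 regions were detected on all colon arrays and on no CT26 array. The region chr10:83181374-83249774, forward strand, holds the probe of 1500009L16Rik and was at least 40.9-fold lower in CT26 (adjusted p = 9.84e-05, and 2.15e-06 without colon replicate 3). The region chr1:135956616-135957485, reverse strand, lies 12.8 kb from Fmod, a matrix proteoglycan gene. It read 1.54, 0.51 and -1.30 in colon and was at least 38.5-fold lower (adjusted p = 0.00034, and 1.76e-05 without colon replicate 3), while Fmod differed by -0.27 ± 0.27 (adjusted p = 0.44).

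Adenoma against colon gave 46 higher and 18 lower probes, in 29 and 14 regions of 4674 probes tested (0.984% and 0.385%), beside 1.98% and 1.44% over all 29174 probes. Rises were 71.9% of these calls, 57.5% after normexp background correction and 40.4% without colon replicate 3. Leaving out any 1 adenoma array gave 0 called regions, leaving out colon replicate 1 gave 3 and replicate 2 gave 21, and leaving out colon replicate 3 gave 210. All 6 smooth muscle markers (median log2 fold change -2.71), 4 of 7 colonocyte markers and 2 of 5 B cell markers were lower in adenoma. Of 5 macrophage and neutrophil markers 2 were higher (S100a8 and S100a9). The part of these markers in the lincRNA calls was not tested. With all arrays, the forward-strand region chr11:96112907-96125798 in the Hoxb cluster, 12.2 kb from Hoxb9, was lower in adenoma. It read 0.68, 0.65 and -1.82 in colon and was not detected in adenoma, at least 29.6-fold lower (adjusted p = 0.0038, and 9.85e-05 without colon replicate 3). Hoxb9 was also lower in adenoma (adjusted p = 0.0019). The same interval carries, on the opposite strand and at slightly different bounds, the region that was higher in adenoma than in small intestine.

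The neighbouring gene of each probe was taken as the nearest RefSeq probe by position on the array's own mm9 coordinates. The median distance was 28.3 kb, and 13324 of the 16063 placed probes (82.9%) had one within 100 kb. Probes nearer to a RefSeq probe were detected more often: 42.8% of those within 10 kb, 36.1% of those between 10 and 100 kb and 30.4% of those farther away were detected on every array of at least 1 group. RefSeq probes on the same strand lay inside 236 regions (5.12%), of which 82.2% were detected in a group, against 62.0% of the other 4371.

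Called lincRNA probes often had a neighbour called in the same direction. In adenoma against small intestine, 543 called probes had a tested neighbour within 100 kb. That neighbour was called in the same direction for 186 of them (34.3%), in the opposite direction for 15 and not called for 342. Of 2996 probes not called, 10.5% had a neighbour called in the same direction as their own fold change, and 19.2% had one called in either direction. In CT26 against colon, 419 of 856 (48.9%) had a same-direction neighbour and 60 an opposite one. Of the 3012 probes not called, 20.5% had a same-direction neighbour and 33.1% one called in either direction. Without colon replicate 3 the count was 506 of 1131 (44.7%). Among the probes not called it was then 21.6%, or 35.9% in either direction. In adenoma against adjacent tissue the same-direction count was 19 of 80, beside 2.22% of the probes not called (3.50% in either direction). In colon against small intestine without colon replicate 3 it was 69 of 172, beside 3.20% (5.02% in either direction). Within 10 kb the same-direction shares were higher, at 48.7% in adenoma against small intestine and 61.1% in CT26 against colon. For the probes not called they were 9.32% and 22.4%, or 15.5% and 32.0% in either direction. Probes of 1 region share a neighbour, so these are counts of probes and not of independent pairs. The 186 probes lay beside 60 different genes. No lower limit was set on the distance, so a neighbour could be a second probe of the same transcript. Of all lincRNA probes, 63 overlapped a RefSeq probe on the same strand. In CT26 against colon, 48 of the regions that rose and 26 of those that fell held such a probe. The share of same-direction neighbours that read the same transcript was not counted.

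**Figure D5:**
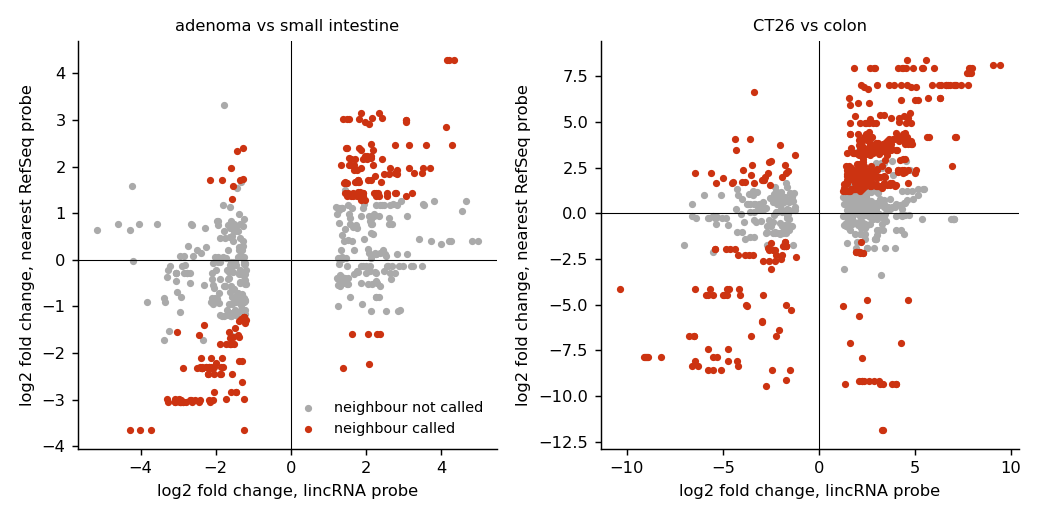
Log2 fold change of the nearest RefSeq probe within 100 kb (y axis) against that of each called lincRNA probe (x axis), for adenoma against small intestine (left) and CT26 against colon (right), with red points where the neighbour was called too. Most red points lie where both values have the same sign (186 of 201 and 419 of 479). A nearest RefSeq probe can belong to the same transcript as the lincRNA probe.

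For comparison, 30 of 39 listed long non-coding RNA genes with names were on the array, and 19 to 23 of them were detected per array. In adenoma against small intestine 6 of 22 tested rose and none fell. They were H19, an imprinted RNA of fetal tissues (5.23 ± 0.68, adjusted p = 0.0011), Snhg3, Snhg12, Mir17hg, Pvt1 and Gt(ROSA)26Sor. The last was also the only one called in adjacent tissue against small intestine, with a rise of 5.81 ± 0.26 (adjusted p = 0.0079) in the pieces of that 1 animal; no probe of the array was called there with slide or replicate number as a block or with any single array left out. In CT26 against colon 5 of 21 rose, among them Pvt1, beside Myc (4.97 ± 0.57), and Snhg1 (4.38 ± 0.58), and 4 fell, among them the imprinted RNAs Meg3 and Peg13, neither of which was detected in CT26. In adenoma against colon H19 rose and Neat1, the scaffold of nuclear paraspeckles, fell. None of the 22 tested passed in adenoma against adjacent tissue. With colon replicate 3 left out, Airn and Kcnq1ot1 were higher in colon than in small intestine.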

How the data were processed

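RNA from 14 samples was labelled with Cy3 and hybridised to Agilent SurePrint G3 Mouse 8x60K arrays (design 028005, build mm9) by the authors. The deposited scanner files hold spot intensity and flags from Feature Extraction 10.7.3.1, background-corrected within each array. A second deposited table holds log2 signals normalized between arrays by a method not given in the sources used here; it was used as an alternative. Its 28 further per-sample columns and 21 columns of the authors' fold changes and p-values were not used.

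Outlier spots were dropped, log2 intensity was scaled to the 75th percentile of each array and spots of a probe were averaged. Groups were compared with limma 3.58.1 in R 4.3.3, a script tested on simulated data. Arrays limit the precision by their number. Members, lists and named regions were chosen with earlier results of these data known. The rule named, per comparison and direction, up to 5 called probes of different regions with the largest change among those detected on all arrays without overlap, up to 3 by bound, the 5 brightest, up to 3 detected in 1 group only and 5 strand pairs. Some of the regions so named are not reported here. Of 27163 RefSeq probes, 26564 were matched to a symbol. Unless samples came from separate animals or cultures, p-values measure only the spread between these samples. Alternatives were other normalizations, filters, blocks for slide or replicate number, and each array left out.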

Additional observations from a re-analysis of the deposited data

How the results depend on the processing

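Counts of called lincRNA regions depended on the processing. For adenoma against small intestine (434) they were 161 with the deposited normalized table, 169 with normexp and 259 with detection required in both groups, and 260 to 583 with single arrays left out. For adenoma against adjacent tissue (82) they were 216 at an adjusted p of 0.05, 41 with the deposited table, 50 with normexp, 3 without a filter on dim probes, 13 with all 5 groups in 1 limma fit, 11 with slide as a block, and 0 to 220 with single arrays left out. For adjacent tissue against small intestine (0) they were 19 at 0.05 and 13 with all groups in 1 fit. For colon against small intestine (0) they were 8 at 0.05, 1 with quantile normalization and 54 with all groups, and 0 to 146 with single arrays left out. For CT26 against colon (699) they were 384 with normexp and 312 with detection in both groups, and 412 to 859 with single arrays left out. For adenoma against colon (43) they were 144 at 0.05, 25 with normexp, 6 without the filter, 21 with detection in both groups, 97 with all groups and 2 with slide as a block, and 0 to 210 with single arrays left out. There, 42.1% of called probes had a same-direction neighbour within 10 kb. The cause of these shifts was not tested. Among checks of named probes, 669 stayed on the same side of the threshold, 267 no longer passed it and none reversed. The 669 include 64 at an adjusted p of 0.05, which a called probe cannot fail. Without adenoma replicate 1, 2 or 3 in turn, 17, 15 and 15 checks passed and 31, 33 and 33 did not. With the numbers in the sample titles as a block, 0 passed and 16 did not.

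Samples sharing a replicate number did not deviate together in every pair (correlations from -0.22 to 0.30), so the numbers were not taken as a pairing. Between adenoma and adjacent tissue the correlations were -0.087 and 0.0036 by replicate number, and -0.0036 and -0.11 by title number. The deviations of the 2 adjacent arrays mirror each other, so these values cannot settle whether pieces were paired. With the replicate block, regions called were 377 for adenoma against small intestine, 544 for CT26 against colon, 6 for adenoma against adjacent tissue (0 with the numbers in the sample titles), 1 for adenoma against colon and 0 for the other two. The few arrays limit precision, and probes near background have only a bound.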
